A study of Mus musculus with 8 samples.

Results

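The cells described here are CD8 T cells of the mouse spleen that carried transcripts of Nrn1, Zbtb32, Capg or Nrp1 and none of 3 terminal effector genes. A spleen cell barcode was kept when it held at least 500 unique molecular identifiers (UMIs, 1 for each captured transcript molecule), at least 300 genes and under 10% mitochondrial UMIs. A kept barcode was selected when the UMIs of the 4 genes summed to at least 3 and Klrg1, Cx3cr1 and S1pr5 each had 0 UMIs. This gave 165 selected cells of 11061 kept spleen barcodes, 108 of 5335 in the WT library and 57 of 5726 in the EomesTG library. The kept barcodes of all 4 RNA libraries of the series, liver included, numbered 18732. The reference was the memory-like remainder of the same library, namely cells with a sum of 0 in which Ccl5, a chemokine gene of antigen-experienced CD8 T cells, took at least 0.1% of UMIs. It held 1782 WT and 1064 EomesTG cells. Because measured counts chose the cells, the levels of the selecting genes are given as a description only.

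The WT group was C57BL/6, and the EomesTG group was EomesTg/Tg on the C57BL/6 background, a gain-of-function strain made to express the T-box factor Eomes in T cells. The promoter that drives the transgene and the age and sex of the animals are not given in the sources used here. The sort of CD8 T cells started from a pool of 3 mice per strain, so a genotype was 1 spleen library and no mouse can be told from another. The study asked what Eomes does to gene expression and clone sizes among CD8 T cells of these organs. With 1 library per genotype there was no replicate and no test, and every interval below is an exact 95% interval that covers counting error only.

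Of the genes that name the cells, Nrn1 encodes neuritin, a small lipid-anchored surface protein first described in neurons and also found on anergic and regulatory T cells. Zbtb32 encodes a zinc finger repressor of the BTB family that restrains lymphocyte proliferation and cytokine output, and Capg an actin-capping protein related to gelsolin. Nrp1 encodes neuropilin 1, a co-receptor for semaphorins and vascular endothelial growth factor that thymus-derived regulatory T cells carry. Itgb1, the fifth marker, encodes the integrin beta1 chain, which pairs with several alpha chains to bind extracellular matrix and vascular adhesion molecules, and the selection did not use it. In GENCODE M21 on GRCm38, Capg lies on chromosome 6 (72544391 to 72562983, plus strand), Nrn1 on chromosome 13 (36725361 to 36735131, minus strand) and Zbtb32 on chromosome 7 (30589681 to 30598909, minus strand). Nrp1 (128358604 to 128503363) and Itgb1 (128685654 to 128733200) are neighbours on the plus strand of chromosome 8.

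The kept WT spleen barcodes held 28760172 UMIs and the kept EomesTG spleen barcodes 28282240, with medians of 5023 and 4751.5 UMIs per cell. The selected cells held 1002818 and 497493 UMIs, so that a single UMI was worth 0.997 and 2.01 UMIs per 1000000 UMIs of these cells (CPM, the scale of all levels below). The spleen libraries shared 57 barcode sequences; 2 of these were selected in WT, 0 in EomesTG, and no barcode was selected in both.

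Selected cells made up 2.02% (1.66 to 2.44) of kept WT barcodes and 0.995% (0.755 to 1.29) of kept EomesTG barcodes. The share depended on depth. In WT it was 0.987% among cells under 3000 UMIs and 18.3% among cells of 12000 UMIs or more, and in EomesTG 0.425% and 20%. The median total was 6813.5 UMIs in WT selected cells against 4955 in the reference, and 7498 against 4965 in EomesTG. With every cell thinned to 2000 UMIs the rule took 22 of 5080 WT cells (0.433%, 0.272 to 0.655) and 11 of 5353 EomesTG cells (0.205%, 0.103 to 0.367). The share was lower in the EomesTG library by both counts, but after thinning the intervals overlapped. Cells with Ccl5 at 0.1% of UMIs or more made up 36.9% of kept WT and 20.8% of kept EomesTG barcodes, and among them the selected share was 1.22% (24 of 1969) in WT and 1.34% (16 of 1193) in EomesTG. The plot of depth against summed UMIs shows these cells 1 by 1.

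**Figure D1:**
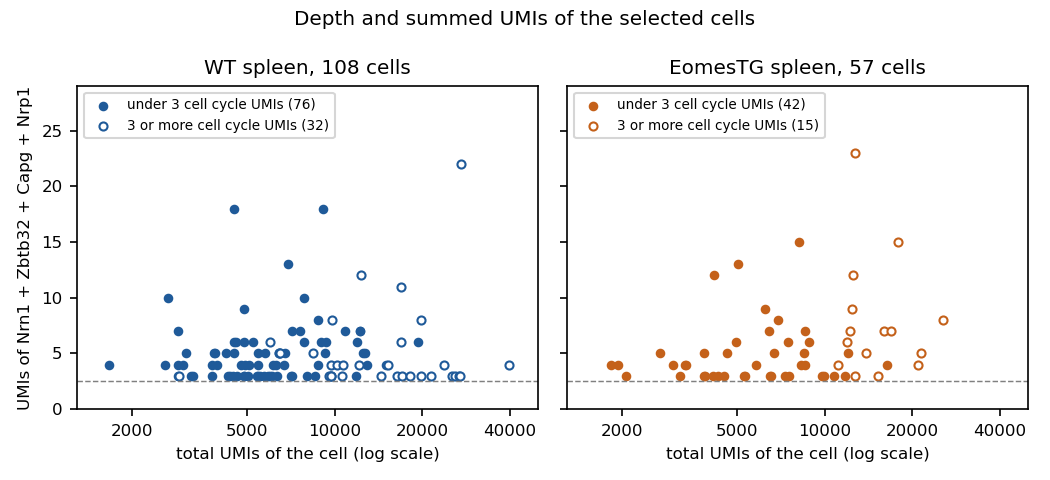
Each point is 1 selected cell, with its total UMIs on a log x axis and the summed UMIs of Nrn1, Zbtb32, Capg and Nrp1 on the y axis; open points are cells with 3 or more UMIs over 11 cell cycle genes and the dashed line is the selection limit. Sums reach 22 in WT and 23 in EomesTG, and the 32 WT and 15 EomesTG cycling cells lie toward high totals.

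All 4 selecting genes were seldom found in the same cell. A Capg UMI was present in 87 of 108 WT cells and 33 of 57 EomesTG cells, a Zbtb32 UMI in 46 and 33, a Nrn1 UMI in 37 and 28, and a Nrp1 UMI in 28 and 20. Capg gave the most UMIs in WT, 291 against 136 for Nrn1, 81 for Zbtb32 and 39 for Nrp1. In EomesTG the order was Nrn1 with 131, Capg with 94, Zbtb32 with 67 and Nrp1 with 32. In WT, 43 cells had UMIs of 1 of the genes, 45 of 2, 15 of 3 and 5 of all 4. In EomesTG these numbers were 20, 19, 16 and 2. Capg alone was the most frequent pattern in WT, with 31 cells, followed by Zbtb32 with Capg in 22. Nrn1 alone, with 9 cells, and Zbtb32 with Capg, with 8, led in EomesTG. The selection limit lay in a dense range: 40 WT and 19 EomesTG cells had a sum of exactly 3, just inside it, while 79 and 43 cells had a sum of 2, just outside. A further 5 WT and 3 EomesTG cells reached the sum and were excluded for an effector gene.

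Each selecting gene was also read in cells gated by the other 3, after thinning to 2000 UMIs. The genes were chosen on these data, so the shares only describe them. Among WT cells with at least 2 UMIs of the other 3 genes, Nrn1 was found in 7 of 42 (16.7%) against 0.529% of cells with none, Zbtb32 in 6 of 47 (12.8%) against 0.297%, Nrp1 in 4 of 43 (9.30%) against 0.486% and Capg in 4 of 15 (26.7%) against 3.23%. In EomesTG, Nrn1 was found in 14.3% against 0.622%, Zbtb32 in 11.1% against 0.370% and Nrp1 in 12% against 0.428%. Capg was the exception there, with 0 of 23 gated cells (up to 14.8%) against 1.84%.

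The cells bore the RNA of CD8 T cells. Each had a UMI of a Cd3 gene, and 105 of 108 WT and 56 of 57 EomesTG cells had one of Cd8a or Cd8b1. In the reference 150 of 1782 WT and 100 of 1064 EomesTG cells had no UMI of Cd8a or Cd8b1. A T cell receptor beta (TRB) chain was recovered for 103 WT and 57 EomesTG selected cells. No selected cell of either library held a UMI of Foxp3 or Cd4, which define regulatory and helper T cells, of Trdc, the gamma-delta receptor gene, or of Cd79a, Ms4a1, Lyz2, Siglech, S100a8, Hbb-bs or Ncr1. These genes were rare in the reference too, so their absence from so few cells says little. There Foxp3 was found in 1 WT and 1 EomesTG cell, Cd4 in 0, Trdc in 31 and 26 and Ncr1 in 6 and 1. A few selected cells had UMIs of other types' markers, namely Jchain in 2 WT and 1 EomesTG cells, Csf1r in 1 WT cell and H2-Aa in 1 EomesTG cell. The label marker Itgb1 was present, and the 4 others were used for selection, so the gate rather than an independent marker set defines these cells.

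Lists of 9 other cell types were summed as CPM. All 8 neutrophil genes and all 9 erythroid and platelet genes were at 0. The B cell list came to 274 in WT selected cells against 240 in the reference and to 237 against 221 in EomesTG, with 7 of 10 genes at 0 in the selected cells of both libraries. Its main part was Ighm, found in 61.1% of WT and 61.4% of EomesTG selected cells against 55.6% and 54.2% of reference cells. After thinning these shares were 25.2% against 32.5% in WT and 34.5% against 31.7% in EomesTG, a level shared by cells that should lack the gene and read here as background. The monocyte and macrophage list stood at 144 against 181 in WT and 133 against 165 in EomesTG, and the NK cell list at 829 against 1494 and 1407 against 1636. The plasma cell list stood at 51.9 against 26.8 and 38.2 against 30, the conventional dendritic list at 37.9 against 19 and 50.3 against 42.1, and the plasmacytoid dendritic list at 182 against 152 and 227 against 186. The CD4 T cell list was higher, at 135 against 27.3 in WT and 227 against 45.4 in EomesTG, with Cd4 itself at 0. Izumo1r gave 111 of the 135 CPM in WT and 223 of the 227 in EomesTG. Cd40lg, the CD40 ligand gene of helper T cells, had 21 UMIs in 14 WT cells and was called higher there (log2 2.24, 1.40 to 3.03). No doublet caller was run. Cells with 2 TRB chains made up 5 of 103 (4.85%) WT and 7 of 57 (12.3%) EomesTG selected cells with a TRB chain, against 7.39% and 8.45% in the reference. What free RNA and doublets add to the ratios below was not tested.

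A set of 4 WT cells stood apart. They held all Zbtb16 UMIs of the WT selected cells, the gene of the innate-like T cell factor PLZF. Of these cells 3 had no Cd8 UMI, each entered through 4 to 12 Capg UMIs, and none had a Nrn1, Zbtb32 or Itgb1 UMI. They gave 14 of the 20 Tmem176b UMIs of the WT selected cells and 17 of the 78 Lgals3 UMIs. Zbtb16 had 0 UMIs in the EomesTG selected cells. This set was singled out after its values were seen.

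Receptor sequences gave a view of the cells that the selection did not use. A clone was defined as cells with the same set of productive TRB and TRA CDR3 nucleotide sequences and at least 1 TRB. Selected WT cells with a TRB chain formed 100 distinct clones of 103 cells, and EomesTG cells 56 of 57. Cells in clones of 2 or more spleen cells made up 6.80% (2.78 to 13.5) of WT selected cells against 6.59% (5.43 to 7.91) of the reference, and 8.77% (2.91 to 19.3) against 7.30% in EomesTG. Cells with a sum of 0 and Ccl5 under 0.1%, called low-Ccl5 cells, stood at 1.01% and 1.59%. A clone also seen in the liver library of the same genotype was carried by 9 of 103 WT cells (8.74%, 4.07 to 15.9) against 6.72% of the reference and 0.0722% of low-Ccl5 cells. In EomesTG it was 1 of 57 (1.75%, 0.0444 to 9.39) against 5.21% and 0.0257%. The intervals for selected and reference cells overlapped in both libraries, for both measures.

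The clones below are shown because most or all of their cells were selected, and a single receptor for its segments. Each sequence is the CDR3 from the deposited contigs, 5′ to 3′, with capitals for letters found neither in the end of the germline V segment nor in the J segment of GRCm38. The WT clone of 5 cells was the one with the most selected cells, 4 of 5. The 5th cell had a sum of 2, 1 further cell was in the liver, 2 cells were cycling, and Itgb1 ranged from 3 to 11 UMIs per cell. It used TRAV14D-1 (chr14:52855614-52856166) with TRAJ6 (chr14:54212688-54212749) and TRBV19 (chr6:41178375-41179048) with TRBJ2-2 (chr6:41542957-41543007), all on the plus strand. Both cells of an EomesTG clone of 2 were selected, with sums of 4 and 9 and with 10 and 18 Itgb1 UMIs. It used TRAV13D-1 (chr14:52851290-52851866) with TRAJ40 (chr14:54177921-54177981) and TRBV16 (chr6:41151740-41152230) with TRBJ2-7 (chr6:41543810-41543856). A further receptor paired TRAV1 (chr14:52427928-52428876) with TRAJ33 (chr14:54185358-54185414), the segments of mucosal-associated invariant T cells, in 1 WT selected cell.
WT clone of 5, TRA: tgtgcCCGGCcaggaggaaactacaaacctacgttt
WT clone of 5, TRB: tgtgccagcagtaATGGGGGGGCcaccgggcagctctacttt
EomesTG clone of 2, TRA: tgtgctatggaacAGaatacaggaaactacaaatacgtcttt
EomesTG clone of 2, TRB: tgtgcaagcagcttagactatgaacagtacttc
TRAV1 with TRAJ33, TRA: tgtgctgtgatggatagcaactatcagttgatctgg
The WT TRB chain has 10 letters that neither segment holds and the WT TRA chain 5, while the EomesTG TRB chain and the TRAV1 chain have 0. Other clones of several cells were mixed. In WT, 2 clones of 2 cells had 1 selected cell each, beside 1 reference cell in one of them. In EomesTG, 2 clones of 3 cells and 1 clone of 2 had 1 selected cell each, and in 1 clone of 3 the other cells were 2 reference cells. The 39-cell WT clone with TRAV10, TRAJ56, TRBV29 and TRBJ1-6 had 1 selected cell, 28 reference cells and 30 cells with a UMI of an excluded effector gene, beside 114 cells in the liver. The segments of natural killer T cells, TRAV11 with TRAJ18, were in 0 selected cells and in 15 WT reference cells.

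Itgb1 was the marker that the rule did not use. It was named as a marker with earlier results of these data known, so its levels only describe the cells. Its level was 471 CPM (429 to 515) in WT selected cells and 180 (171 to 189) in the WT reference. In EomesTG it was 679 (609 to 756) and 231 (218 to 244). The selected cells of each library were thus above their reference, 2.62-fold in WT (log2 1.39, 1.24 to 1.54) and 2.95-fold in EomesTG (log2 1.56, 1.38 to 1.73). Low-Ccl5 cells stood far below both, at 53.4 and 69.7 CPM. Per cell, Itgb1 ranged from 0 over a median of 2 to 30 UMIs in WT and from 0 over 3 to 33 in EomesTG, and 75 of 108 and 43 of 57 cells had a UMI. Thinned to 2000 UMIs, Itgb1 was found in 54.2% (44.3 to 63.9) of WT selected cells against 25.7% of the reference, and in 56.4% (42.3 to 69.7) against 32.1% in EomesTG. Without the cell with the most Itgb1 UMIs the log2 ratios were 1.31 and 1.46. Against 1 reference cell per selected cell, nearest in total UMIs, the EomesTG ratio came to 1.08.

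The Itgb1 level was also higher in cells with higher sums of the selecting genes, among cells the rule left out as well. In WT it was 154 CPM at sum 0 with Ccl5 and no effector gene, 199 at sum 1, 328 (285 to 374) at sum 2, 291 (240 to 349) at sum 3 and 594 (520 to 676) at sum 5 or more. In EomesTG the values were 217, 232, 469 (385 to 566), 595 (472 to 740) and 743 (646 to 852). The intervals of cells just inside and just outside the limit overlapped in both libraries.

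**Figure D2:**
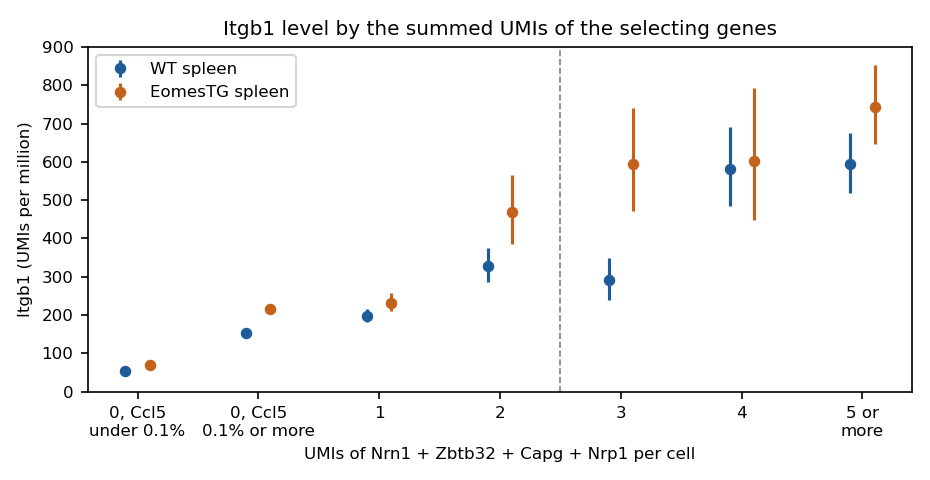
Itgb1 in CPM (y axis) by the summed UMIs of Nrn1, Zbtb32, Capg and Nrp1 per cell (x axis) in each spleen library; bars are exact Poisson 95% intervals of counting error, cells with an effector gene are left out, and the dashed line is the selection limit. The level goes from 53.3 to 594 in WT and from 69.5 to 743 in EomesTG across the classes.

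The other genes were compared between selected and reference cells as ratios of summed CPM. A gene with at least 50 UMIs over both sides was called higher or lower when the ratio was at least 1.5-fold and its interval lay on that side of equality. This is a size rule and not a test. In WT 1339 of 8564 genes (15.6%) were called higher and 534 (6.24%) lower. In EomesTG the calls were 936 of 7477 (12.5%) and 304 (4.07%). In both libraries at once 552 of 7461 genes (7.4%) were higher and 141 (1.89%) lower. Cells with 3 or more UMIs over 11 cell cycle genes made up 32 of 108 WT (29.6%, 21.2 to 39.2) and 15 of 57 EomesTG selected cells (26.3%, 15.5 to 39.7), against 2.58% and 2.07% of the reference. Their median totals were 14814 and 13865 UMIs, against 5612.5 and 6013 in the other selected cells. With cycling cells left out of both sides, 197 genes (2.72%) were higher in both libraries and 38 (0.525%) lower, beside 895 (10.8%) and 236 (2.84%) in WT alone and 520 (7.17%) and 132 (1.82%) in EomesTG alone. Of the 552 higher and 141 lower genes, 127 and 34 were still called. Against depth-matched reference cells 156 genes were higher and 31 lower in both libraries.

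The ranking of genes higher in both libraries was led by genes of the cell cycle. Of 15 listed genes 13 were tested in both libraries and all 13 were higher (7.4% of all tested genes). Their median log2 ratio was 3.24 in WT and 2.49 in EomesTG beside 0.14 and 0.15 over all tested genes. Birc5, which encodes survivin, a chromosomal passenger protein, stood at 172 against 9.0 CPM in WT (log2 4.25, 3.86 to 4.65) and 237 against 13.5 in EomesTG (4.13, 3.70 to 4.58). Ccnb2, a mitotic cyclin, had ratios of 4.06 and 4.97, Pclaf, a partner of the replication clamp, 4.73 and 3.93, and Top2a, the replicative topoisomerase, 3.81 and 2.99. Mki67, the proliferation marker Ki-67, had 3.34 and 2.49. Matching the reference cells by total UMIs lowered the ratios given next. Cycling cells had high totals, so this match cannot tell depth from cell cycle. It was also incomplete at the top. The highest totals were 18188 UMIs in the WT and 17008 in the EomesTG reference, against 39729 and 25522 in the selected cells. Against depth-matched reference cells the EomesTG call ended for Mki67 (-0.12, -0.77 to 0.54), whose sign turned, for Top2a (0.61, -0.01 to 1.25), Rrm2 (0.30), Tpx2 (0.72, -0.18 to 1.66), Cks1b (0.65, -0.01 to 1.34) and Ube2c (0.57). Birc5 was then at 2.47 in WT and 1.12 in EomesTG, and Ccnb2 at 2.41 and 1.96. Stmn1, a regulator of microtubules, was at 432 against 49.2 in WT and 418 against 49.4 in EomesTG. Other named genes of this kind were Ccna2, Cdca3, Cenpf, Ube2c, Tpx2, Cdca8, Tk1, Cks1b, Rrm2, Tacc3 and Cdca7. Cycling cells were picked by such genes, so their loss without those cells is no finding: 0 of 7 list genes were then higher in WT and 1 of 6 in EomesTG, the latter Stmn1 at 1.70.

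Receptors and factors of T cell inhibition and tolerance were the next group. Of 21 listed genes 13 were tested in both libraries, 6 were higher in both (7.4% of all tested genes) and none lower (1.89%). The medians were 0.79 in WT and 1.03 in EomesTG. Without cycling cells 10 of 13 were higher in WT (10.8% of all tested genes) and 8 of 12 in EomesTG (7.17%). Of the 6, Izumo1r, Lag3, Ctla4, Pdcd1 and Ikzf2 were still called in both libraries; Cd200 was still called in WT, and in EomesTG, at 4.28, it had too few UMIs for a call. Izumo1r, the folate receptor 4 gene of anergic and regulatory T cells (chromosome 9, 14885814 to 14903949, minus strand), stood at 111 against 18.7 CPM in WT (log2 2.57, 2.21 to 2.92) and at 223 against 41.9 in EomesTG (2.41, 2.07 to 2.75). It was found in 38 WT and 27 EomesTG cells. Cd200, which encodes a ligand that quiets myeloid cells (chromosome 16, 45382135 to 45409053, minus strand), stood at 78.8 against 2.56 in WT (4.95, 4.26 to 5.68) and 62.3 against 4.51 in EomesTG (3.79, 2.97 to 4.62). The size of these ratios depends on the reference. In low-Ccl5 cells without an effector gene Cd200 stood at 23.1 CPM in WT and 3.43 in EomesTG, and Izumo1r at 43.1 and 81.6. Lag3, an inhibitory receptor for MHC class II, was at 63.8 against 8.33 (2.94, 2.43 to 3.44) and 175 against 33.0 (2.40, 2.02 to 2.78), with UMIs in 29 cells of each library. The CD28-family inhibitor Ctla4 had ratios of 2.21 and 2.82.

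Pdcd1, which encodes PD-1, was at 35.9 against 5.44 CPM in WT (2.72, 2.06 to 3.37), in 27 cells. In EomesTG it was at 70.4 against 23.8 (1.56, 0.98 to 2.11), in 13 cells. With depth-matched reference cells the EomesTG ratio of Pdcd1 was 0.59 (-0.24 to 1.44), and its call ended. Tnfrsf9, the costimulator 4-1BB induced by receptor signals, had ratios of 2.34 and 2.26, with 26.4% and 26.3% of its UMIs from 1 cell. The Helios gene Ikzf2 had 0.63 and 0.97, and 0.57 in WT with depth-matched cells, just under the size rule. Tox, an exhaustion-associated factor, was called higher in WT (0.71) and not in EomesTG (0.31). Havcr2, the TIM-3 gene, had 1 and 0 UMIs. Of the list of regulatory T cell genes 4 of 13 were tested in both libraries and 3 were higher (7.4% of all tested genes). These were Izumo1r, Ctla4 and Ikzf2, all of them also in the list above.

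Genes of migratory and activated lymphocytes formed the third group. In the list of S100, galectin and annexin genes 14 of 15 were tested in both libraries. Of these 9 were higher in both (7.4% of all tested genes) and none lower (1.89%), with medians of 0.85 and 1.35. Without cycling cells 10 were higher in WT (10.8% of all tested genes) and 11 in EomesTG (7.17%). S100a4, a calcium-binding protein of motile cells, stood at 161 against 19.0 CPM in WT (3.08, 2.76 to 3.40) and 72.4 against 11.1 in EomesTG (2.71, 2.07 to 3.33). Its relative S100a6 was at 679 against 280 (1.28) and 1003 against 216 (2.22). Lgals3, which encodes galectin 3, was at 77.8 against 10.8 in 27 WT cells (2.85, 2.40 to 3.30) and 163 against 10.9 in 14 EomesTG cells (3.90, 3.40 to 4.41), where 1 cell gave 23.5% of the UMIs. Lgals1, for galectin 1, was at 1158 against 391 and 1230 against 290. The intermediate filament gene Vim was at 1234 against 424 and 1317 against 391. Anxa2, for annexin A2, had ratios of 0.89 and 2.01, and its WT call ended with depth-matched reference cells (0.52, 0.20 to 0.84).

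Among 15 integrin genes 7 were tested in both libraries, and Itgb1 and Itgb7, the chain of the mucosal integrins, were the 2 higher in both. Over all genes tested in both libraries 7.4% were higher. Itgb1 was already a marker of these cells, so its place in this count was not free. Itgb7 stood at 379 against 218 CPM in WT (0.80) and 394 against 218 in EomesTG (0.86). The alpha chain Itga4, a partner of both, had -0.24 and 0.60. Itgae, the alphaE chain that pairs with Itgb7, was higher in WT (2.82, 29 cells), whereas EomesTG selected cells had 2 Itgae UMIs in 1 cell, a ratio of 0.51 with an interval of -2.66 to 2.62.

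Several lists had few called genes. Over all genes tested in both libraries 7.4% were higher and 1.89% lower, the shares to set beside these counts. The actin list, which holds relatives of Capg, had 2 of 16 genes higher in both libraries. Of the semaphorin and plexin genes that act with Nrp1 none of 5 tested was called in both. Of 14 genes that report receptor signalling Tnfrsf9 was higher and Cd69 lower in both libraries. Glycolytic genes were higher for 5 of 11, with Gapdh at 1.31 and 1.14 and Pkm at 1.19 and 1.05. Without cycling cells 4 of them were called in WT (10.8% of all tested genes) and 0 in EomesTG (7.17%), where Gapdh was at 0.56. Ptms, which encodes parathymosin, a chromatin-associated protein, was called higher with ratios of 2.49 and 2.63 (2.89 and 2.65 without cycling cells). Ifi27l2a, an interferon-inducible gene, had 1.61 and 2.13 and was the 1 of 12 interferon genes higher in both libraries.

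**Figure D3:**
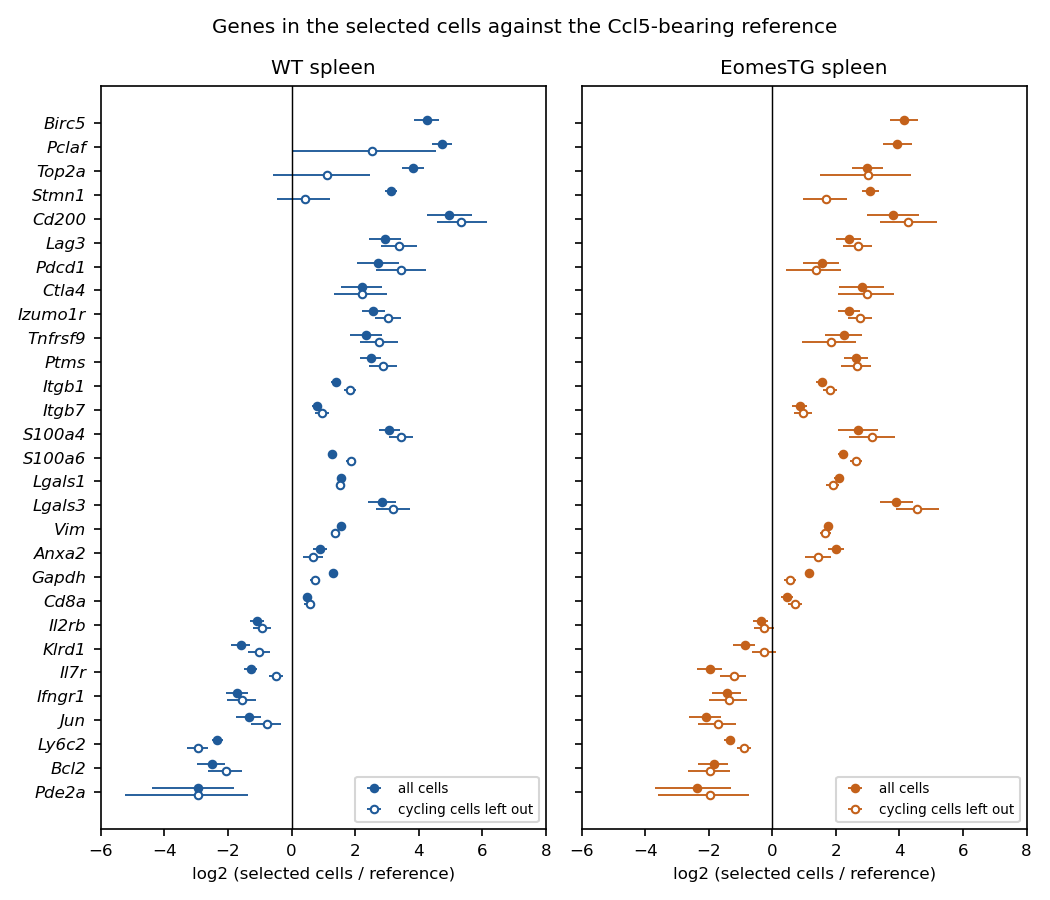
Log2 ratios of selected over reference cells (x axis) for genes of the groups described in each spleen library, with exact 95% intervals of counting error; filled points use all cells and open points leave out cycling cells, and a point is missing where a side has no UMI. Without cycling cells no tested gene of the cell cycle list is called higher in WT, and only Stmn1 is in EomesTG. Itgb1 moves from 1.39 to 1.83 in WT and from 1.56 to 1.83 in EomesTG.

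Memory and survival genes were among those lower in the selected cells. Of 13 memory genes 4 were lower in both libraries (1.89% of all tested genes) and none higher (7.4%). In WT 8 were lower (6.24%) and in EomesTG 4 (4.07%), with medians of -0.89 and -0.37. The reference was chosen for Ccl5, a limit that 24 of 108 WT and 16 of 57 EomesTG selected cells reached. The direction of this list is therefore not free of the rule. With only those selected cells, 24 genes were lower in both libraries, 13 of them among the 141. Bcl2, the survival factor that keeps memory cells alive, stood at 44.9 against 256 CPM in WT, 5.71-fold lower (log2 -2.51, -2.97 to -2.09), and at 80.4 against 289 in EomesTG, 3.59-fold lower (-1.84, -2.33 to -1.39). Without cycling cells the ratios of Bcl2 were -2.06 and -1.95. Ly6c2, a Ly6 surface antigen of memory CD8 T cells, was at 252 against 1271 (-2.33) and 511 against 1297 (-1.35). Il7r, the interleukin 7 receptor chain, was at 206 against 502 (-1.28) and 119 against 464 (-1.97). Its WT call ended without cycling cells, at -0.48. Ifngr1, the interferon gamma receptor, had -1.71 and -1.43, Txk, a kinase near the T cell receptor, -1.95 and -1.40, and Pde2a, a cyclic nucleotide phosphodiesterase, -2.94 and -2.36. Bbc3, the pro-apoptotic PUMA gene, was also lower, at -2.35 and -2.44, though its EomesTG call ended with depth-matched cells (-1.53, -3.37 to 0.05).

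The apoptosis list had 5 of 15 genes higher and 2 lower in both libraries, beside 7.4% and 1.89% of all tested genes. The survival gene Bcl2a1b was higher at 1.24 and 1.28, while Bcl2 was lower. Immediate early genes, which tissue handling can induce, had 5 of 13 lower in both and none higher, with Jun at -1.34 and -2.09. The part of handling in this was not tested. The small GTPase gene Rhob had 1 UMI in the WT selected cells, a log2 ratio of -4.71 with an interval of -10.02 to -2.22, and 4 in EomesTG (-2.44).

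Natural killer receptor genes were lower in 8 of 12 genes tested in both libraries (1.89% of all tested genes) and higher in none (7.4%). In WT 14 of 14 were lower (6.24% of all tested genes) and in EomesTG 8 of 13 (4.07%). The selection barred effector genes from the selected cells and not from the reference, so the direction of this list is not free of the rule. With reference cells that also lacked Klrg1, Cx3cr1 and S1pr5 the counts were 14 of 14 and 6 of 11. Those reference cells were still chosen for Ccl5, as the selected cells were not, so these counts are not free of the rule either. Klrd1, the CD94 chain, stood at 92.7 against 281 CPM in WT (-1.60) and 151 against 276 in EomesTG (-0.87). Without cycling cells it was at -1.02 and -0.25, and the EomesTG call ended. The Ly49 receptor gene Klra7 had 0 UMIs in the WT selected cells, at least 27.6-fold lower than the reference at a floor of 3 UMIs. In EomesTG it had 15 UMIs, 10 of them in 1 cell (-0.23). The adaptor gene Tyrobp had 0 UMIs in both, at least 4.53-fold and 1.74-fold lower. Against the reference without effector genes the EomesTG bound was lost, with 26 reference UMIs and an interval that reached 0.64 on the log2 scale. Gzmm, for granzyme M, was lower at -3.56 and -1.54. Of the cytotoxic list Serpinb6b, a granzyme inhibitor, was the gene higher in both libraries, with 1.08 and 1.12, and none of 10 was lower in both.

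Genes of naive cells went both ways. Tcf7, for the factor TCF-1, was called in neither library (0.23 and 0.08). Dapl1, an apoptosis-related gene of naive CD8 T cells, was higher with 2.27 and 1.25. Myb, a factor of proliferating progenitors, was called in WT (1.82). The factor Eomes itself was close to the reference in both, at 99.7 against 91.3 CPM in WT (0.13, -0.19 to 0.43) and 137 against 158 in EomesTG (-0.21, -0.59 to 0.15).

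Set against low-Ccl5 cells (2962 in WT and 4249 in EomesTG), the selected cells were called higher for 1324 of 9216 WT genes (14.4%) and 1283 of 9439 EomesTG genes (13.6%), and lower for 417 (4.52%) and 323 (3.42%). In both libraries 630 of 9084 genes (6.94%) were higher and 119 (1.31%) lower. Naive genes were then on the lower side, 8 of 14 in WT and 6 of 13 in EomesTG. Lef1, a naive and stem-like factor, stood at 200 against 447 CPM in WT (log2 -1.16) and at 199 against 446 in EomesTG (-1.16). Ccr7, the lymph node homing receptor, had -1.13 and -1.14. Of 13 memory genes 5 were higher and 3 lower in WT, and 6 and 2 in EomesTG. The adhesion receptor gene Cd44 was higher at 1.37 and 1.19 and the chemokine receptor gene Cxcr3 at 1.02 and 0.80, while Bcl2 was lower on this comparison too, at -1.83 and -1.48. S100a6 stood at 679 against 22.1 CPM in WT (4.94) and 1003 against 3.72 in EomesTG (8.07). Both comparisons use the same selected cells. Bcl2 and Il7r were below and Itgb1, Izumo1r, Lag3 and Pdcd1 above either class in each library.

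The selected cells were not of 1 kind. Ccl5 reached 0.1% of UMIs in 24 of 108 WT cells (22.2%, 14.8 to 31.2) and 16 of 57 EomesTG cells (28.1%, 17.0 to 41.5), and the 2 sides differed within each library. Cells with Ccl5 were higher than those without for 205 of 2648 WT genes (7.74%) and 85 of 1355 EomesTG genes (6.27%), and lower for 155 (5.85%) and 101 (7.45%). These genes were picked after their values were seen. On the Ccl5 side S100a4 (log2 2.05 in WT and 1.33 in EomesTG), S100a6 (1.71 and 1.91) and Lgals3 (1.45 and 2.19) were higher. So were Nkg7, a cytotoxic granule protein, with 1.48 and 1.07, and Klrd1 with 1.32 and 1.22. Cells without Ccl5 held more Izumo1r (-3.23 and -0.82), more Itm2a, a membrane protein of activated and developing T cells (-2.32 and -1.67), and more Xcl1, the chemokine for cross-presenting dendritic cells (-1.55 and -2.34).

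Itgb1 followed Ccl5 in WT (1.92, 1.64 to 2.19) but had 0.16 (-0.20 to 0.52) in EomesTG. The difference between the libraries was not tested. Eomes had 0 UMIs in the WT cells with Ccl5 and 100 in those without, spread over 22 cells, 1 of which held 25. In EomesTG it had a ratio of 0.49.

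Cells with a Nrn1 UMI, 37 in WT and 28 in EomesTG, were called higher than those without for 86 of 2648 (3.25%) and 41 of 1355 genes (3.03%) and lower for 94 (3.55%) and 105 (7.75%). They had more Izumo1r (2.15, 1.56 to 2.76 in WT and 0.99, 0.40 to 1.59 in EomesTG), more Itm2a (2.22 and 3.53) and more Xcl1 (1.80 and 2.68). In EomesTG 1 cell held 47 of the 110 Itm2a UMIs. Lgals3 was lower beside Nrn1, at -1.17 and -1.87. Itgb1 was called in neither library, with -0.48 and 0.34. This split uses a selecting gene: a cell without Nrn1 had to reach the sum through Capg, Zbtb32 or Nrp1. It also shares its cells with the Ccl5 split and depends on depth, and its genes were picked after their values were seen.

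**Figure D4:**
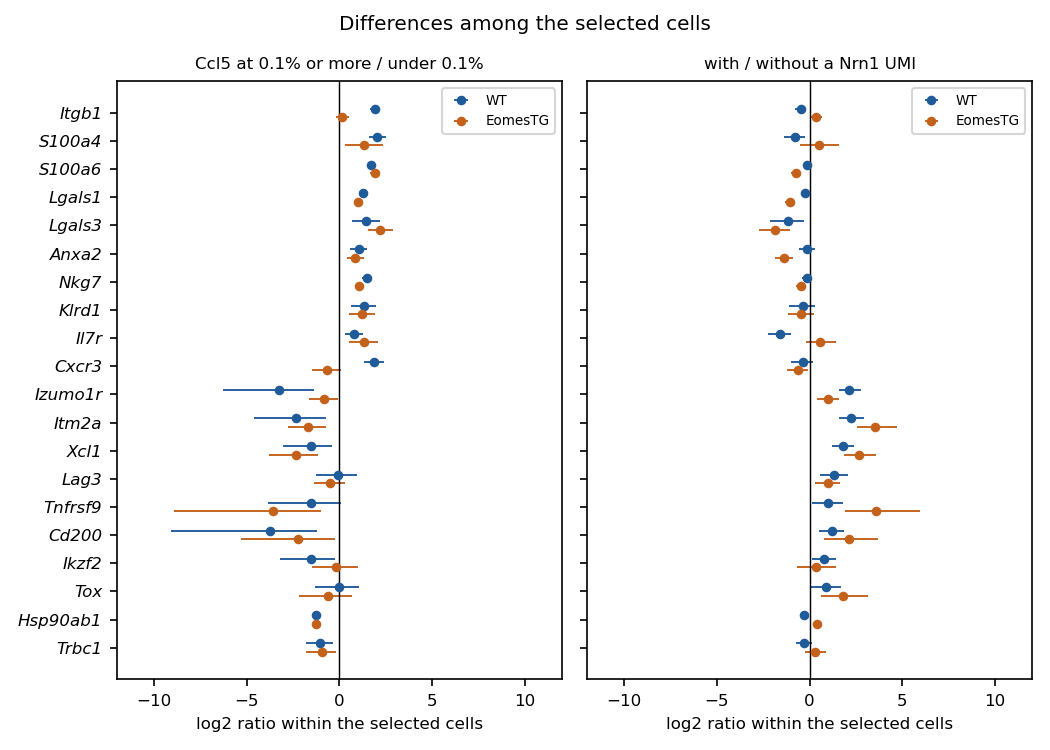
Log2 ratios within the selected cells (x axis) for 20 genes, with exact 95% intervals of counting error; the left panel sets cells with Ccl5 at 0.1% of UMIs or more against the others, the right panel cells with a Nrn1 UMI against those without. S100a4, S100a6 and Lgals3 lie to the right on the left panel in both genotypes, while Izumo1r, Itm2a and Xcl1 lie to the left there and to the right on the right panel.

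Between genotypes, Eomes is the gene of the transgene. Selected cells held 99.7 CPM in WT and 137 in EomesTG, in 22 and 26 cells, a log2 ratio of 0.45 (-0.01 to 0.91). The reference cells of the same libraries had 0.79 (0.65 to 0.93). The counts do not tell transgenic from endogenous Eomes transcripts. The ratio among selected cells was -0.09 without cycling cells, on the other side of equality. Tbx21, for the related factor T-bet, was at 1.25 (0.48 to 2.03) among selected cells and -0.25 in the reference.

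Of 3772 genes tested between the selected cells of the genotypes 160 (4.24%) were higher in EomesTG and 154 (4.08%) lower. Without cycling cells it was 63 of 2046 (3.08%) and 89 (4.35%). The reference cells gave 234 of 9061 (2.58%) and 164 (1.81%). Values of the reference are set beside those of the selected cells, and whether the genotype ratios differ between the classes was not tested. Gzmk, for granzyme K, had a log2 ratio of 3.36 among selected cells and 0.75 in the reference. Ctla2a, a cathepsin inhibitor, had 1.64 and 0.47, Ifitm10 1.87 and 0.12, and Ly6c2 1.02 and 0.03. Casp1, the inflammasome caspase, had 2.11 and 1.11, and the serpin Serpina3g 2.12 and 1.03.

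Hspa1a, the inducible heat shock protein 70 gene, was higher in EomesTG throughout, with 5.15 in selected and 6.72 in reference cells. Lag3 had 1.45 and 1.99, Litaf 1.60 and 2.02, Tspan3 1.54 and 1.08, and Gimap7 1.16 and 0.37. Itm2a had 1.30 and 0.62, and 0.84 without the top cell of each library. Pdcd1, at 0.97 among selected cells, had 2.13 in the reference. Itgb1 was called in neither class, with 0.53 and 0.36.

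Lower in EomesTG selected cells were Dapl1 (-2.85, and -1.83 in the reference), Itgae (-3.57 and -1.27) and Tesc, a calcium-binding protein gene (-2.99 and -0.79). Atp5k, a subunit of ATP synthase, had -1.56 and -0.94. Pds5a, a cohesin regulator, had -2.28 among selected cells and 0.11 in the reference. Of the 12 named lower genes 6 were histone genes, Hist2h2bb, Hist1h2bj, Hist1h2bb, Hist1h2bm, Hist1h4i and Hist1h1b. In 4 of these 1 and the same WT cell held most of the UMIs, 122 of 162 for Hist2h2bb and 78 of 144 for Hist1h2bj. That cell had 23706 UMIs in all, 81 of them of cell cycle genes, and a sum of 4 that was entirely Capg. Without the top cell of each library Hist2h2bb was at -3.33 and Hist1h2bj at -5.02. The EomesTG selected cells held 3 and 4 UMIs of these genes before that removal, so both ratios rest on very few UMIs. Histone genes are near-identical copies, so counts may be split between them.

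**Figure D5:**
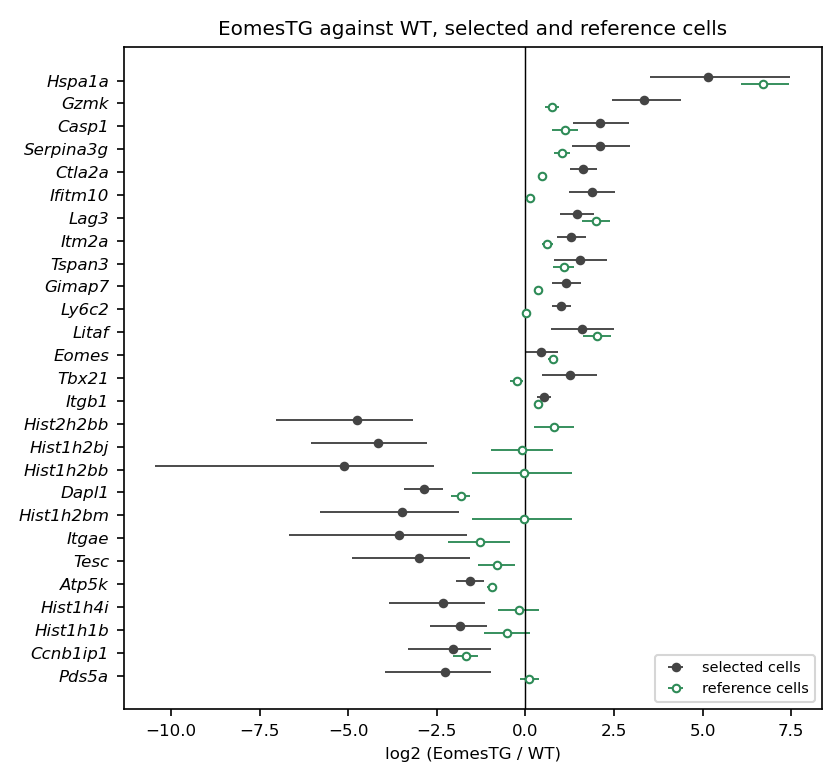
Log2 ratio of EomesTG over WT (x axis) in selected cells (filled) and reference cells (open) for the named genes, with Eomes, Tbx21 and Itgb1 between the higher and lower sets; bars are exact 95% intervals of counting error. Gzmk lies at 3.36 in selected and 0.75 in reference cells, while Hspa1a and Lag3 are to the right in both.

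The same rule in the liver libraries took 134 of 3150 WT cells (4.25%, 3.58 to 5.02) and 126 of 4521 EomesTG cells (2.79%, 2.33 to 3.31). The shares were above those of spleen in both genotypes and, as in spleen, lower in EomesTG than in WT. Median totals per kept cell were 5463 UMIs in WT liver against 5023 in WT spleen and 3919 against 4751.5 in EomesTG, and the share moves with depth. After thinning the liver shares were 1.02% (0.686 to 1.45) in WT and 0.864% (0.599 to 1.21) in EomesTG, with intervals that overlapped. Among liver cells with Ccl5 at 0.1% of UMIs or more the share was 2.31% (49 of 2119) in WT and 2.94% (114 of 3874) in EomesTG.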

How the data were processed

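CD8 T cells of spleen and liver were profiled with the 10x Genomics 5′ v1 kit, per the labels' protocols, and Cell Ranger with mm10 is named in the submitters' processing notes. The authors deposited matrices of unnormalized UMI counts, with software version 3.1.0 and format version 2 per the file headers, and the contig tables as counts of UMIs and reads per receptor contig. UMIs were summed over the cells of a class in a library and scaled to 1000000 (CPM). Ratios carry exact conditional binomial 95% intervals, levels exact Poisson and shares exact Clopper-Pearson intervals. A call needed 50 UMIs over both sides, 1.5-fold and an interval on that side of equality. The floor for 0 was 3 UMIs of a class. The ratio was run on simulated class sums with known fold changes, drawn as independent Poisson counts. Such sums leave out the spread between cells, so the intervals were not checked for it. Of 31053 gene identifiers 30934 matched GENCODE M21. No cell was removed as a doublet. UMIs of cells of pooled mice are not independent samples, so no p-value was computed. Genes named against the reference were the 20 highest and 15 lowest called alike in both libraries, by the interval bound nearest to equality, the 12 each way between genotypes, and up to 6 of a list. This ranking left out sex-linked genes, ribosomal protein, mitochondrial and antigen receptor genes and other cell types' markers. The selection rule and the 37 gene lists were chosen with earlier results of these data known. Versions were scipy 1.17.1, numpy 2.4.6, matplotlib 3.10.9 and pandas 2.3.3, under Python 3.11.15.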

Additional observations from a re-analysis of the deposited data

Results flagged for a closer look

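A set of 5 genes was called in opposite directions in the WT and EomesTG libraries when selected cells were set against their reference, with 1 library each, so the difference between the genotypes was not tested. Gzma, for granzyme A, had a log2 ratio of -4.52 in WT and 1.31 in EomesTG, where 47 of its 74 UMIs came from 1 cell; without that cell it was at -0.13 (-0.75 to 0.44). Bhlhe40, a transcription factor of activated T cells, had -1.85 in WT, from 3 UMIs, and 1.55 in EomesTG, from 15 UMIs. In EomesTG 1 cell held 6 of them, and without that cell the ratio was 0.85 (-0.36 to 1.87). Against reference cells without effector genes Bhlhe40 had -1.05 (-3.38 to 0.57) in WT and 2.06 (1.08 to 2.96) in EomesTG. Gpr183, an oxysterol receptor that guides lymphocytes, had -0.74 and 0.59, and 0.29 in EomesTG without the top cell. Against depth-matched reference cells neither Gpr183 nor Bhlhe40 was called in either library. The interferon-stimulated gene Isg15 had 0.91 in WT and -0.89 in EomesTG, where the depth-matched ratio was -0.71 (-1.69 to 0.24). The cohesin regulator Pds5a had 0.65 and -1.75, and its depth-matched WT ratio was 0.35 (-0.32 to 1.05).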

How the results depend on the processing

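No paired analysis was possible because each genotype was 1 library of pooled mice. Of 94 planned comparisons with another setting 63 stayed within the spread allowed and 31 moved; of 21 chosen after seeing the data 9 stayed and 12 moved. These cover the shares, the counts of calls, Itgb1, Eomes and the clone shares; ratios of other genes that lose a call stand beside their values. The share of selected cells (2.02% WT, 0.995% EomesTG) was 3.51 and 1.75 at a sum of 2, 0.843 and 0.472 at 5, and 0.433 and 0.205 after thinning. The WT Itgb1 ratio was 1.20 at a sum of 2, 1.72 at 5, 0.89 against reference cells with Ccl5 at 0.5%, 1.61 against reference cells without effector genes, 1.64 as a mean over cells and 1.63 without cells bearing other cell types' markers. It was 3.14 against low-Ccl5 cells, 2.81 in selected cells with Ccl5 and 1.83 without cycling cells. The EomesTG ratio was 1.08 depth-matched, 1.80 as a mean over cells, 1.22 with Ccl5 at 0.5%, 3.29 against low-Ccl5 cells and 1.83 without cycling cells. Genes higher in both libraries (552) numbered 316 at 200 UMIs, 156 depth-matched, 356 as a mean over cells, 275 without cells with other markers, 202 in selected cells with Ccl5 and 197 without cycling cells; 142 of the 552 were among those depth-matched. Leaving out cells with other markers removed mostly cells with Ighm: with Ighm not summed, 107 WT and 56 EomesTG cells were left, 545 genes were higher and 135 lower, and Itgb1 was at 1.38 and 1.63. Genes lower in both (141) numbered 89, 31, 64 (other markers), 24 (with Ccl5) and 38. Genes higher in EomesTG (160) numbered 255 at 20 UMIs, 35 at 200, 244 at a sum of 2, 102 at 5, 61 without cells with other markers and 63 without cycling cells; genes lower (154) numbered 28 at 200 UMIs, 89 at a sum of 5 and 89 without cycling cells. The Eomes ratio (0.45) was -0.088 without cycling cells, -0.81 without cells with other markers, which leaves 61 and 32 cells, and -0.34 relative to the reference ratio. Depth limits all counts here: 1 UMI is worth 2.01 CPM in the EomesTG selected cells. The causes of these shifts were not tested.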
